A study of Mus musculus with 6 samples.

Results

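NF-kB is a family of 5 dimeric transcription factor subunits, and its response to inflammatory signals is held in check by genes that NF-kB itself induces. The mRNAs of all 5 subunits (Nfkb1, Nfkb2, Rel, Rela and Relb) and of 5 feedback genes (Nfkbia, Nfkbie, Nfkbiz, Tnfaip3 and Bcl3) were followed in cultured mouse female germline stem cells (FGSCs) with and without knockdown of CTCF. The 10 genes were chosen by symbol for their place in the pathway, out of 24732 gene symbols with deposited expression values, and all 10 were found. Earlier results of these data were known when they were chosen. CTCF is a DNA-binding protein that organizes chromatin into loops and domains, and FGSCs are cells of the female germline that can be propagated in culture.

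The control group and the shCTCF group held 3 samples each. The cells of both groups were labelled as C57BL/6 FGSCs beyond 20 passages on a layer of STO cells, a mouse fibroblast line used as feeder. The study's methods describe FGSCs derived from Ddx4-Cre; mT/mG mice, and knockdown by a lentivirus with a single short hairpin RNA (shRNA) against Ctcf, followed by puromycin selection. What the control cells received is not given in the sources used here. The labels do not say whether the 3 samples of a group came from separate cultures, so p-values measure only the spread between these samples, which may be technical. In bulk RNA of this kind, fewer cells of one type and less RNA per cell cannot be told apart.

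In resting cells, NF-kB dimers are kept in the cytoplasm by inhibitor proteins of the IkB family. Signals from cytokine and Toll-like receptors activate the IkB kinase (IKK) complex, which marks the inhibitors for destruction and frees the dimers to enter the nucleus. A second, slower route processes the Nfkb2 precursor and releases dimers that contain RelB. Among the genes switched on are the inhibitors themselves, which end the response. Nfkbia, Nfkbie and Tnfaip3 are brakes of this kind, whereas Nfkbiz and Bcl3 encode nuclear IkB-like proteins that can repress or assist transcription depending on the target.

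The short DNA stretch bound by NF-kB dimers is the kappaB site, and windows before the start sites of the genes are shown so that it can be seen where its letters stand in genes that moved in opposite directions. Promoter windows (RefSeq, build GRCm38.p6) were found for 7 of the 10 genes, in 10 windows because Nfkb2 had 3 start sites and Tnfaip3 had 2. Nfkb1, Relb and Nfkbiz had none. In the 250 bases before each start site, the general kappaB consensus was searched on both strands, and matches that shared bases were counted as 1 place. It was present in 7 of the 10 windows, which belonged to 5 genes (Nfkb2, Rel, Nfkbia, Nfkbie and Tnfaip3), compared with 7.25% of the 32851 windows of all genes. All 3 windows of Nfkb2 held it, and the second and the third of these overlap. The windows of Rela and Bcl3 and the second window of Tnfaip3 held no match. These matches are a description of the letters and show no binding.

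Each of the following sequences is the 250 bases before a start site, written 5′ to 3′ on the strand of the gene, with bases in a kappaB match in capitals. Nfkbia (chr12:55492648-55492897, - strand) and Rel (chr11:23770970-23771219, - strand) each had 1 place, and the first window of Nfkb2 (chr19:46304487-46304736, + strand) had 2. Rela (chr19:5637291-5637540, + strand) and Bcl3 (chr7:19822756-19823005, - strand) are shown as the windows without a match.
Nfkbia: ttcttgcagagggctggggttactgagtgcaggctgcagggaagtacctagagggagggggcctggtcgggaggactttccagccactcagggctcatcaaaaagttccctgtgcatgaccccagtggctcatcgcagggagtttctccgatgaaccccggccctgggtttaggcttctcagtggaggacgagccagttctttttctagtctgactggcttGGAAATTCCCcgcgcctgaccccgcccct
Rel: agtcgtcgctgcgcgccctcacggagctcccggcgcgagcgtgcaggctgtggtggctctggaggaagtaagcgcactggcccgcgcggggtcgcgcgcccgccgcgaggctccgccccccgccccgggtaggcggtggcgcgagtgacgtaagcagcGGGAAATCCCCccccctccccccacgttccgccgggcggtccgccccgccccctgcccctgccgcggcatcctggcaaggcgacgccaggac
Nfkb2: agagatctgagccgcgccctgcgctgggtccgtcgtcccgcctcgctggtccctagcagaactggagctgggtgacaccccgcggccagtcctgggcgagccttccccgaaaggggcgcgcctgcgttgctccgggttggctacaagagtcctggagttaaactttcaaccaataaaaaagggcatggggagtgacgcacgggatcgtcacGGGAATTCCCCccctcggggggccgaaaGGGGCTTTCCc
Rela: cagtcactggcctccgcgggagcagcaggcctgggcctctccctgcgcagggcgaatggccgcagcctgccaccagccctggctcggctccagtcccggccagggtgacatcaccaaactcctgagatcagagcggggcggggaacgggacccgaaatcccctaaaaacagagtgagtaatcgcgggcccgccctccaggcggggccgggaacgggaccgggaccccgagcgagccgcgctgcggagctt
Bcl3: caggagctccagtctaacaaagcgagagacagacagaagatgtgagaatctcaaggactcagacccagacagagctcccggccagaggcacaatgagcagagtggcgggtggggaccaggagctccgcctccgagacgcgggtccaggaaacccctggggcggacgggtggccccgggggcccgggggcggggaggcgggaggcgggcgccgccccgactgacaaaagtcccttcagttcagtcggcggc
The place in Nfkbia lay 29 to 20 bases before the start, that in Rel 92 to 82 bases before it, and those in Nfkb2 39 to 29 and 11 to 2 bases before it. The 7 letters AGGGGGC, which are part of the CTCF motif, were also searched on both strands. They were present in the windows of Rel and Nfkbia and in the second window of Nfkb2, and in 9.43% of all windows. AGGTGGC, the other form searched, was in none of the 10 windows and in 5.08% of all windows.

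Values were deposited in 2 tables, which saw these genes unequally. FPKM values, which are fragment abundances corrected for transcript length and sequencing depth, were available for all 10 genes and are the scale of every value below unless counts are named. Fragment counts omitted any fragment that touched exons of more than 1 transcript accession. Nfkb1, Rel, Rela, Nfkbia and Bcl3 have 1 accession each, and none of their exon bases is shared with another accession, so counts give a second reading of them. For the other 5 genes the share of exon bases in no other accession was 0.3% (Relb), 0.6% (Nfkbiz), 2.8% (Nfkbie), 7.2% (Nfkb2) and 9.4% (Tnfaip3), and counts were 0 in every sample for Relb and Nfkbie and at most 1 for Nfkbiz.

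Total counts were between 5322636 and 7044272 in 5 samples and 1686052 in control replicate 2, which also stood apart from the other controls. The median absolute difference in log2(FPKM + 1) was 0.22 and 0.21 between control replicate 2 and the others, 0.08 between control replicates 1 and 3, and 0.08 to 0.10 within the shCTCF group. The targeted gene Ctcf was at 58.2, 56.1 and 53.5 FPKM in the controls compared with 0.74, 0.55 and 0.629 FPKM after knockdown (log2 fold change -5.12, SE 0.09, limma adjusted p 1.1e-08). An exact two-sided permutation test of these values gave p = 0.1, the smallest that 3 against 3 samples allow. Counts of Ctcf were 0 in every sample, the controls included, and gave no second reading of the knockdown. Of 6 germline markers, 5 (Ddx4, Pou5f1, Dppa3, Gfra1 and Dazl) were at most at 0.182 FPKM in any sample, so the labelled cell type was not seen in its defining markers. Ifitm3 was at 1.00, 0 and 1.21 FPKM in the controls and at 10.8, 11.1 and 10.4 FPKM in the shCTCF samples. Of 10 mast cell markers, 5 had at least 1 FPKM in every sample, led by Kit, Gata2 and Cpa3, and 4 were below 1 FPKM in every sample, among them Ms4a2 and Fcer1a, which was at 0. Their summed level was 1330 to 1384 FPKM in the controls, against 1500 to 1569 FPKM in the shCTCF group, but single markers went opposite ways, with Cpa3 lower (281 and 87.98 FPKM in the means) and Kit (575 and 787 FPKM) and Hdc (4.25 and 87.2 FPKM) higher. For 8 macrophage and monocyte markers, of which Cd68 and Adgre1 reached 1 FPKM in every sample, the sums were 98.5 to 107.7 and 198 to 234 FPKM. The sums of 10 fibroblast markers, with Col3a1, Lum and Loxl1 at 0, were 10.04 to 10.8 and 8.24 to 8.61 FPKM, with Pdgfra and Thy1 higher and Pdgfrb and Dcn lower, and 6 lymphocyte markers were below 1 FPKM in every sample. The part of these shifts in the results below was not tested.

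The comparison asked how the transcripts of NF-kB and of its feedback genes differed after knockdown of CTCF. Among the 5 subunits 4 were lower in the shCTCF group, where the mean FPKM fell by 30.8% for Nfkb2, fell by 43.2% for Relb, fell by 53.2% for Nfkb1 and fell by 66.5% for Rel, and Rela did not pass the test. Of the 5 feedback genes, 3 were higher, by 37.7% (Nfkbia) to 424% (Bcl3), and Nfkbie and Tnfaip3 did not pass. The test was limma on log2(FPKM + 1) over 9976 genes, with an adjusted p under 0.05 taken as the threshold. No subunit rose and no feedback gene fell. In the background of all genes tested, 28.8% were higher and 44.2% were lower by the same rule, so a call by itself is common in these data. Over all genes the median log2 fold change was -0.17 on this scale, that of the subunits was -0.73 and that of the feedback genes was 0.44.

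**Figure D1:**
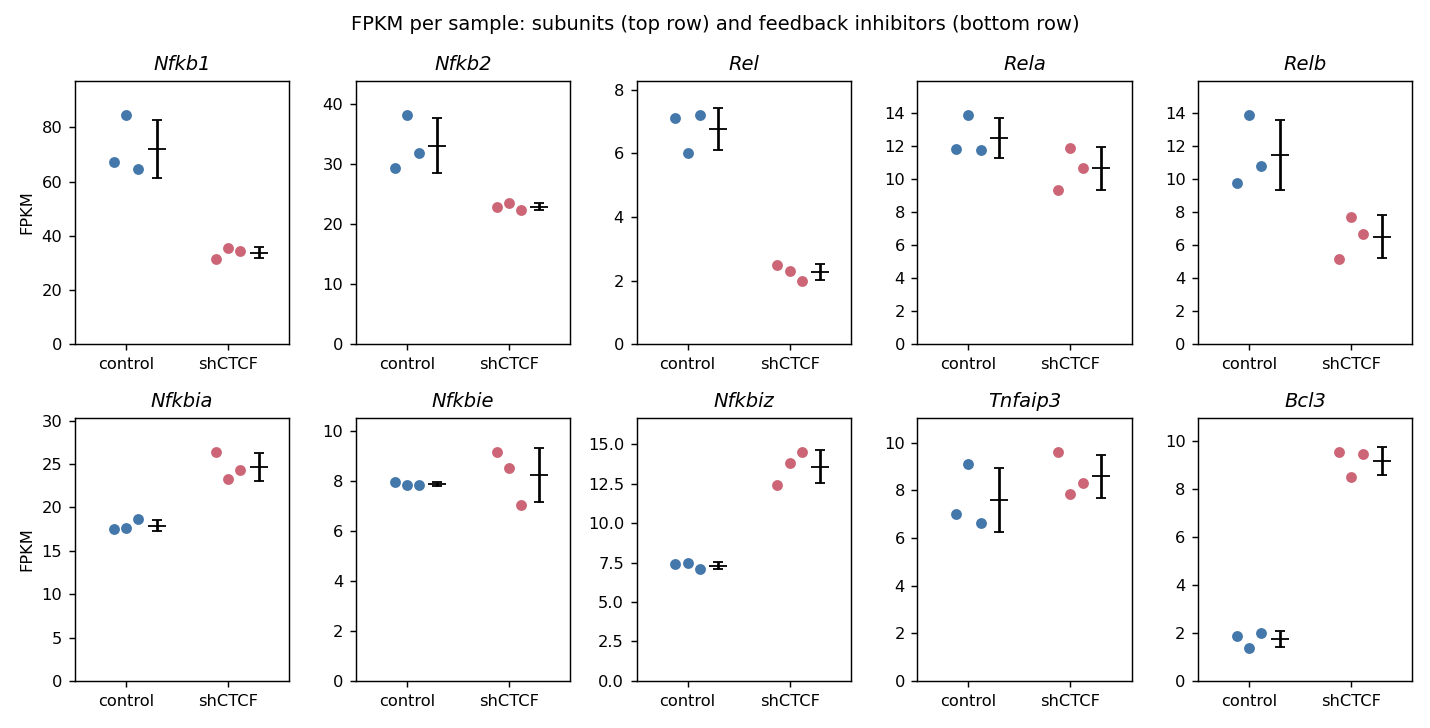
FPKM of each of the 10 genes (vertical axes, from 0) in the 3 control and the 3 shCTCF samples (points), with the mean and SD of each group beside them. The groups are apart in 7 panels and overlap for Rela, Nfkbie and Tnfaip3.

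Nfkb1 encodes the precursor of the subunit that pairs with RelA in the classical dimer. It was the most abundant of the 10 transcripts, with 67.2, 84.5 and 64.8 FPKM in the 3 controls and 31.5, 35.4 and 34.4 FPKM in the shCTCF samples. Every shCTCF value was below the lowest control, and the group means were 72.2 ± 10.7 and 33.8 ± 2.06 FPKM (SD, n = 3 each). This gave a log2 fold change of -1.07 (SE 0.11, limma adjusted p 5.91e-05). On counts, which were 3560, 1123 and 3644 in the controls, against 1556, 1558 and 1928 in the shCTCF samples, it was -0.86 (SE 0.09, edgeR adjusted p 4.17e-06). Nfkb1 lies on mm9 chromosome 3 from 135247619 to 135354511.

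Rel encodes c-Rel, an activating subunit best known in lymphocytes. Its fall was the largest estimate among the subunits tested on each table, within the standard errors of that of Nfkb1 on log2(FPKM + 1) but beyond them on counts. It was at 7.12, 6.01 and 7.20 FPKM in the 3 controls and at 2.50, 2.31 and 2.00 FPKM in the shCTCF samples. The groups were well apart, with means of 6.78 ± 0.663 and 2.27 ± 0.255 FPKM (SD, n = 3 each). On log2(FPKM + 1) the log2 fold change was -1.25 (SE 0.11, limma adjusted p 3.07e-05), and a fall at least as large was found in 9.01% of all genes tested. Counts were 242, 51 and 253 against 73, 66 and 69, with a log2 fold change of -1.43 (SE 0.15, edgeR adjusted p 3.21e-06) after scaling for library size. Rel is on chromosome 11 from 23641729 to 23670970.

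Rela encodes the main activating subunit. Its level was 11.8, 13.9 and 11.8 FPKM in the 3 controls and 9.33, 11.9 and 10.7 FPKM in the shCTCF samples. The groups overlapped in a single value, shCTCF replicate 2, which lay between the controls. The log2 fold change was -0.21 (SE 0.11, limma adjusted p 0.12), close to the median of all genes, and -0.04 after median scaling, which gives all samples an equal median (adjusted p 0.735). On counts it was 0.01 (SE 0.11, edgeR adjusted p 0.916), and the sign turned to -0.154 when counts were scaled by library size only. No change of Rela was detectable here. The gene is on chromosome 19 from 5637490 to 5648130.

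Nfkb2 and Relb form the dimer of the slower route. Nfkb2 was at 29.3, 38.1 and 31.8 FPKM in the 3 controls and at 22.8, 23.5 and 22.3 FPKM in the shCTCF samples. The groups did not overlap, and the log2 fold change was -0.50 (SE 0.10, limma adjusted p 0.00245), or -0.33 after median scaling (adjusted p 0.024). All FPKM of the controls was listed under 1 accession of Nfkb2, whereas a second accession, NM_019408, was listed at 0 in every control and at 5.48, 4.31 and 6.00 FPKM in the shCTCF samples. The accessions share most of their exons and differ at the 5′ end. Counts of Nfkb2 were 15, 2 and 13 in the controls, against 10, 19 and 19 in the shCTCF samples, on 7.2% of the exon bases only, and gave a log2 fold change of 0.62 (SE 0.38, edgeR adjusted p 0.169), opposite in sign and not past the threshold. Nfkb2 lies on chromosome 19 from 46379227 to 46386580, and Psd and 4833438C02Rik share exon bases with it.

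Relb was at 9.76, 13.8 and 10.8 FPKM in the 3 controls and at 5.16, 7.71 and 6.65 FPKM in the shCTCF samples. The groups did not overlap, and the log2 fold change was -0.73 (SE 0.16, limma adjusted p 0.00436), or -0.57 after median scaling (adjusted p 0.0148). The value rests on the sum over the accessions of the gene. Control replicate 1 was listed wholly under one accession and the other 5 samples wholly under the second, so that the accession with the highest mean alone gave 0.41 (adjusted p 0.735), with control replicate 1 at 0. Counts gave no second reading. Relb lies on chromosome 7 from 20191571 to 20214787.

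Nfkbia encodes IkB alpha, the best known inhibitor of the classical dimer. It was at 17.5, 17.6 and 18.6 FPKM in the 3 controls and at 26.4, 23.2 and 24.3 FPKM in the shCTCF samples. Each shCTCF value was above every control, and the means were 17.9 ± 0.61 and 24.7 ± 1.58 FPKM (SD, n = 3 each). The log2 fold change was 0.44 (SE 0.08, limma adjusted p 0.00113) and 0.61 after median scaling. Counts were 366, 94 and 415 against 489, 386 and 518, and the log2 fold change on counts was 0.61 (SE 0.10, edgeR adjusted p 0.000144). Nfkbia lies on chromosome 12 from 56590396 to 56593634.

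Nfkbie encodes IkB epsilon, another cytoplasmic inhibitor. It was the steadiest of the 10 genes among controls, with 7.97, 7.86 and 7.84 FPKM, and was at 9.16, 8.53 and 7.05 FPKM in the shCTCF samples, on both sides of the controls. Its log2 fold change was 0.05 (SE 0.11, limma adjusted p 0.688). Tnfaip3 encodes a ubiquitin-editing enzyme that dampens receptor signalling to NF-kB. It was at 7.02, 9.10 and 6.64 FPKM in the 3 controls and at 9.60, 7.83 and 8.31 FPKM in the shCTCF samples. Control replicate 2, the shallow library, was the only control inside the range of the shCTCF group. The log2 fold change of Tnfaip3 was 0.16 (SE 0.13, limma adjusted p 0.288), and without control replicate 2 it was 0.29 and passed the threshold (adjusted p 0.0263). Counts of Tnfaip3, between 7 and 26 in a sample, gave 0.59 (SE 0.35, edgeR adjusted p 0.155). Nfkbie is on chromosome 17 from 45692649 to 45700117 and Tnfaip3 on chromosome 10 from 18720717 to 18735216.

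Nfkbiz encodes IkB zeta, a nuclear protein induced by Toll-like receptor and interleukin-1 signals. It was at 7.38, 7.47 and 7.07 FPKM in the 3 controls and at 12.4, 13.8 and 14.5 FPKM in the shCTCF samples. The groups were far apart, with means of 7.31 ± 0.211 and 13.6 ± 1.05 FPKM (SD, n = 3 each). On log2(FPKM + 1) the log2 fold change was 0.81 (SE 0.09, limma adjusted p 7.52e-05), and a rise at least as large was found in 14.7% of all genes tested. Nfkbiz lies on chromosome 16 from 55811490 to 55838754.

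Bcl3, a nuclear IkB-like protein that binds homodimers made from the Nfkb1 and Nfkb2 products, changed most of the 10 genes. It was at 1.87, 1.38 and 1.99 FPKM in the 3 controls and at 9.53, 8.49 and 9.45 FPKM in the shCTCF samples. The means were 1.75 ± 0.325 and 9.16 ± 0.577 FPKM (SD, n = 3 each), 5.24-fold higher in the shCTCF group. On log2(FPKM + 1), which understates the change at such low levels, the log2 fold change was 1.89 (SE 0.12, limma adjusted p 4.55e-06). On that scale 4.23% of all genes tested rose at least as far. With 0.1 added in place of 1 it was 2.34. Counts were 47, 10 and 46 against 201, 171 and 238, with a log2 fold change of 2.50 (SE 0.15, edgeR adjusted p 2.49e-08). Bcl3 lies on chromosome 7 from 20393811 to 20408104.

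Of the 10 genes, 7 passed the filter of the test on counts, and 4 of these were past the threshold, Nfkb1 and Rel lower and Nfkbia and Bcl3 higher. In the background on counts, 34.8% of 7341 genes were higher and 34.3% were lower. The 4 genes had the same direction on FPKM. Groups did not overlap on FPKM for 3 genes that were higher (Nfkbia, Nfkbiz and Bcl3) and 4 that were lower (Nfkb1, Nfkb2, Rel and Relb), where 30.8% of all genes tested were higher without overlap and 45.8% were lower. Relative to the median of all genes, the log2 fold change on FPKM was -0.89 for Nfkb1, -0.33 for Nfkb2, -1.08 for Rel, -0.04 for Rela and -0.56 for Relb. It was 0.61 for Nfkbia, 0.22 for Nfkbie, 0.98 for Nfkbiz, 0.34 for Tnfaip3 and 2.06 for Bcl3.

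**Figure D2:**
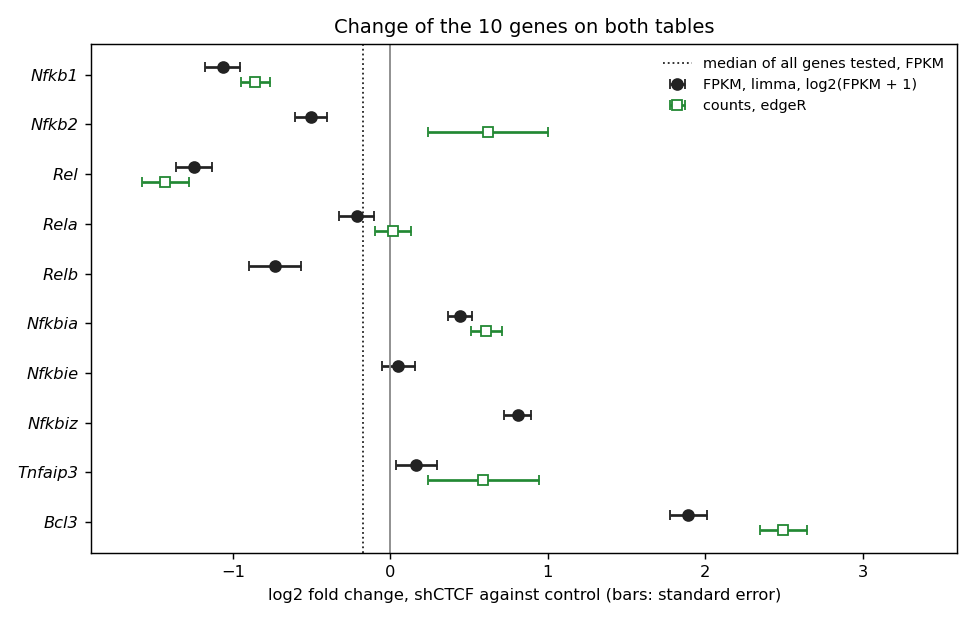
Log2 fold change of each gene, shCTCF against control, on FPKM (filled circles, limma) and on counts (open squares, edgeR, where tested), with standard errors as bars and the median of all genes on FPKM as a dotted line. Nfkb1 and Rel lie to the left and Nfkbia and Bcl3 to the right on both tables, whereas Nfkb2 has opposite signs.

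The order of transcript levels differed between the groups. In the controls it was Nfkb1, Nfkb2, Nfkbia, Rela, Relb, Nfkbie, Tnfaip3, Nfkbiz, Rel and Bcl3, from 72.2 to 1.75 FPKM. Rela and Relb overlapped in range, and so did each neighbour from Nfkbie to Rel. In the shCTCF group the order was Nfkb1, Nfkbia, Nfkb2, Nfkbiz, Rela, Bcl3, Tnfaip3, Nfkbie, Relb and Rel, from 33.8 to 2.27 FPKM. There Nfkbia and Nfkb2 overlapped, as did each neighbour from Rela to Relb. Bcl3 was last in the controls, and Rel was last in the shCTCF group.

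The composition of the subunit pool was taken as each gene's share of the summed FPKM of the 5 subunits within a sample, which does not depend on scaling between samples and was not tested. The sum was 125, 156 and 126 FPKM in the controls, against 71.2, 80.9 and 76.1 FPKM in the shCTCF samples. Nfkb1 made up 53.7%, 54.1% and 51.3% of it in the controls, against 44.2%, 43.8% and 45.2% in the shCTCF samples. The share of Rela went from 9.21 ± 0.294% to 14.0 ± 0.827%, that of Nfkb2 from 24.3 ± 0.886% to 30.1 ± 1.62%, and that of Rel from 5.08 ± 1.07% to 3.00 ± 0.461% (SD, n = 3 each), without overlap between the groups. The share of Relb was 8.39 ± 0.538% and 8.50 ± 1.16%, with overlap. The larger share of Nfkb2 depended on summing its accessions, since with the most abundant accession alone the difference was -0.07 percentage points in place of 5.82.

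Nfkb1 and Rela, the partners of the classical dimer, can be compared on both tables. Nfkb1 was 5.69, 6.09 and 5.51 times the level of Rela on FPKM in the controls and 3.37, 2.97 and 3.21 times in the shCTCF samples. The groups did not overlap. On counts per kilobase of exon the ratio was 6.28 ± 0.26 in the controls and 3.49 ± 0.218 in the shCTCF group (SD, n = 3 each). The ratio of Rel to Rela went from 0.549 ± 0.1 to 0.216 ± 0.0453 on FPKM and from 0.608 ± 0.125 to 0.232 ± 0.0323 on counts per kilobase. The ratio of Bcl3 to Nfkb1 went from 0.025 ± 0.00762 to 0.272 ± 0.0316 on FPKM and from 0.026 ± 0.00523 to 0.271 ± 0.0224 on counts per kilobase (SD, n = 3 each).

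The summed FPKM of the 5 feedback genes was 41.7, 43.4 and 42.1 in the controls, against 67.1, 61.9 and 63.7 in the shCTCF samples. Divided by the subunit sum, this was 0.334, 0.278 and 0.333 in the controls, against 0.942, 0.765 and 0.837 in the shCTCF samples, with no overlap between the groups. Relative to the subunit sum, each feedback gene was higher in every shCTCF sample than in every control. The difference on the log2 scale was 3.24 for Bcl3, 1.72 for Nfkbiz, 1.29 for Nfkbia, 1.02 for Tnfaip3 and 0.89 for Nfkbie. The lower subunit sum contributes to each of these ratios, and for Nfkbie and Tnfaip3 no change of the gene itself was detected with all samples.

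**Figure D3:**
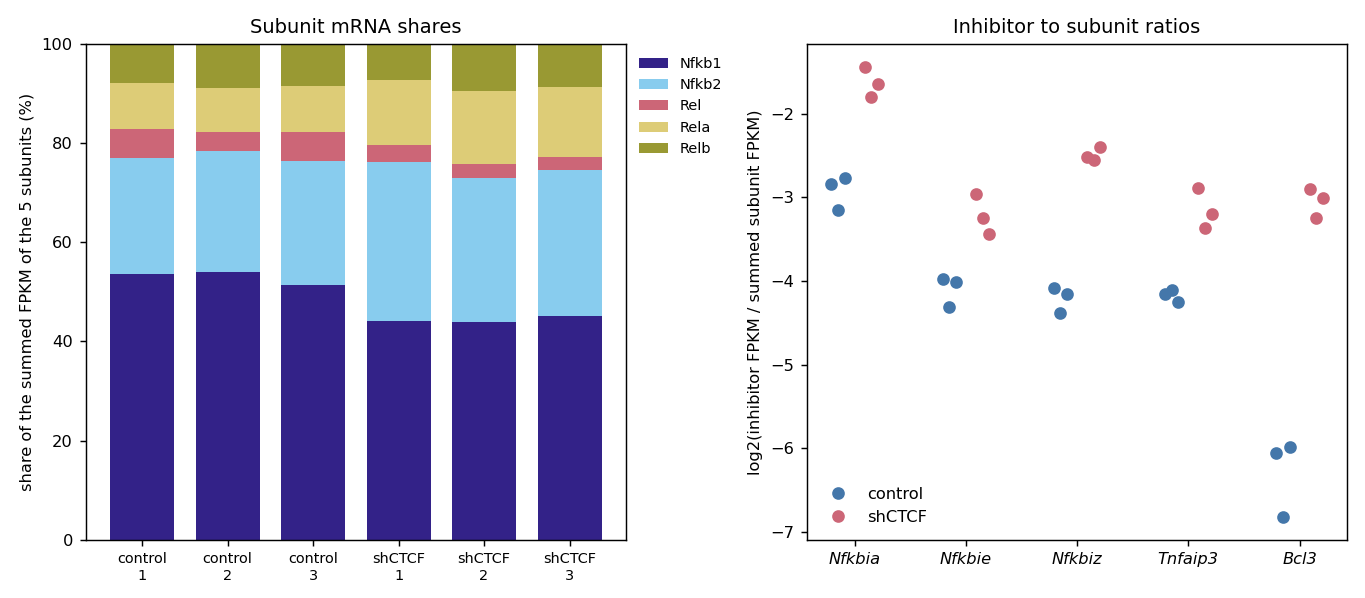
Left, share of the summed subunit FPKM (percent) held by each of the 5 subunits in each sample, as stacked bars. Right, log2 of each feedback gene's FPKM over the summed subunit FPKM, with 1 point per sample, where the shCTCF points lie above the control points for all 5 genes.

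The rest of the pathway was described with 105 genes in 7 lists, also chosen with earlier results known. Of the 105 genes, 76 passed the filter on FPKM. Of these, 39 were higher, 17 were lower and 20 did not pass the test, with a median log2 fold change of 0.37 compared with -0.17 over all genes tested. After median scaling, 45 were higher and 12 were lower, compared with 3481 higher and 3606 lower of all 9976 genes. Of the 76 genes, 7 reached a mean of 1 FPKM in one group only (Tlr7, Traf1, Saa3 and Lcn2 in shCTCF, and Nfkbid, Ltb and Nos2 in the controls), so that they passed the filter through the group in which they were high and their calls carry no weight in the counts. Without them, 35 of 69 genes were higher and 14 were lower, with a median of 0.37. Of all 9361 genes that reached 1 FPKM in both groups, 2511 were higher and 4227 were lower, with a median of -0.19. Over all genes tested 28.8% were higher and 44.2% were lower, which is the background for each list below. On counts 50 of the pathway genes were tested, and 33 were higher and 6 were lower. Over all 7341 genes tested on counts, 34.8% were higher and 34.3% were lower. The 33 include genes, such as Lcn2, Saa3 and Mmp9, that had at most 6 counts in any control. They passed the count filter through the shCTCF group only, so their calls carry no weight. All 35 pathway genes called on both tables had the same direction, out of 47 tested on both. Both tables describe the same samples, so this is not independent evidence, and the 35 include Saa3, Lcn2 and Ltb. The receptor gene Il1rl1 had opposite signs. It did not pass on FPKM (-0.27, limma adjusted p 0.0915) and was higher on counts (0.62, edgeR adjusted p 0.000228). The values named below are log2 fold changes on FPKM with limma adjusted p. The 7 genes that passed through one group only are described by their FPKM.

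Among receptors, 5 of 16 genes passed the filter, 3 were higher and none was lower, and without Tlr7, which passed through the shCTCF group only, 2 of 4 were higher. Il1r1, the signalling receptor of interleukin-1, was at 4.79, 4.73 and 5.70 FPKM in the 3 controls and at 63.7, 59.7 and 55.1 FPKM in the shCTCF samples (3.32, SE 0.09, adjusted p 1.06e-07). On the means it was 11.7-fold higher. Il1rap, also in this list, did not pass the filter. It was at 0, 0 and 0.0369 FPKM in the controls and at 0 in every shCTCF sample. Tlr7, a receptor of single-stranded RNA, was at 0.049, 0 and 0.0229 FPKM in the 3 controls and at 3.05, 3.49 and 4.28 FPKM in the shCTCF samples. Tnfrsf1a, the main receptor of tumour necrosis factor, had a smaller difference of 0.45 (adjusted p 0.0189), which did not pass without shCTCF replicate 1 (adjusted p 0.0665) or 3 (adjusted p 0.058).

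Among receptor adaptors, 7 of 17 genes tested were higher and 4 were lower, and 6 of 16 were higher without Traf1. Traf1, an adaptor that is also an NF-kB target, went from 0.207 ± 0.021 to 4.35 ± 0.305 FPKM. Birc3, a ubiquitin ligase of the receptor complex, went from 12.3 ± 1.54 to 31.9 ± 1.1 FPKM (1.31, adjusted p 9.47e-06). Myd88, the shared adaptor of Toll-like and interleukin-1 receptors, went from 11.4 ± 3.14 to 25.6 ± 0.362 FPKM (1.13, adjusted p 0.00038). The falls were led by Ticam2 (-1.82, adjusted p 1.95e-05), an adaptor of Toll-like receptor 4, the kinase Irak1 (-1.14, adjusted p 1.02e-05), which acts just after Myd88, and Traf3 (-0.61, adjusted p 0.000667), which restrains the slower route. The call of Traf3 was lost with its most abundant accession alone (-0.38, adjusted p 0.132).

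Of 11 genes of the IKK complex and its activating kinases, 5 were higher and 3 were lower, compared with 28.8% and 44.2% of all genes tested. Map3k8, a kinase that is held by the Nfkb1 precursor, rose from 5.11 ± 0.317 to 31.8 ± 1.22 FPKM (2.42, adjusted p 1.9e-07), Tbk1, an IKK-related kinase, from 19.2 ± 1.73 to 40.8 ± 3.05 FPKM (1.06, adjusted p 2.42e-05), and Map3k14, the kinase that triggers Nfkb2 processing, from 1.04 ± 0.453 to 3.08 ± 0.428 FPKM (1.02, adjusted p 0.00118). Tab1, a partner of the kinase Map3k7, fell from 7.77 ± 1.14 to 1.96 ± 0.614 FPKM (-1.58, adjusted p 9.9e-05). The IKK subunits Ikbkb (-0.37, adjusted p 0.00298) and Ikbkg (-0.36, adjusted p 0.00912) were lower by less, and neither passed after median scaling (-0.20, adjusted p 0.0533, and -0.21, adjusted p 0.0763).

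The ubiquitin machinery moved in both directions. Of 5 genes of the ligase that marks IkB, Fbxw11, a substrate receptor, was higher (0.66, adjusted p 0.000917), Rbx1, its RING subunit, was lower (-0.58, adjusted p 0.000525), Skp1 was lower at the edge of the threshold (-0.36, adjusted p 0.0499), with overlapping groups, and 2 did not pass. Skp1 did not pass after median scaling (-0.18, adjusted p 0.263). With its most abundant accession alone Fbxw11 had a larger estimate, 1.59, that did not pass (adjusted p 0.281). Of 6 genes tested for linear ubiquitin and CARD adaptors, 2 were higher and 2 were lower, compared with 28.8% and 44.2% of all genes tested. Malt1, a protease and scaffold that activates IKK, rose from 13.4 ± 1.34 to 57.4 ± 0.81 FPKM (2.02, adjusted p 6.14e-07). Card9, an adaptor of myeloid receptors, fell from 11.5 ± 2.04 to 3.28 ± 0.713 FPKM (-1.55, adjusted p 6.94e-05), and Rbck1, a subunit of the linear ubiquitin ligase, was lower by 0.46 on the log2 scale (adjusted p 0.00729), which did not pass after median scaling (adjusted p 0.0612).

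Other IkB family and feedback genes were tested as well, 13 in number, of which 7 were higher, 3 were lower, or 2 without Nfkbid, and 3 did not pass. Zc3h12a, an RNase that destroys inflammatory mRNAs including that of Nfkbiz, went from 3.25 ± 0.54 to 14.3 ± 1.6 FPKM (1.85, adjusted p 6.56e-06). Tax1bp1 and Rnf11, both partners of the Tnfaip3 enzyme, rose by 1.53 (adjusted p 3.5e-06) and 1.30 (adjusted p 0.000356), although Tnfaip3 itself did not pass the test. Nfkbid, a nuclear IkB-like gene related to Nfkbiz and Bcl3, moved the other way, from 3.57 ± 0.772 to 0.988 ± 0.23 FPKM. Tnip1, which binds Tnfaip3, and Nfkbil1, named for its similarity to IkB, were lower by 0.92 (adjusted p 0.000575) and 0.78 (adjusted p 0.00089) on the log2 scale.

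Of 33 textbook NF-kB target genes, 19 passed the filter, and 14 were higher, 3 were lower and 2 did not pass, with a median log2 fold change of 0.90. Without the 4 that passed through one group only (Saa3, Lcn2, Nos2 and Ltb), 12 of 15 were higher and 1 was lower, with the same median. Saa3, an acute phase protein, was at 0.525, 0 and 0.491 FPKM in the 3 controls and at 44.5, 59.3 and 53.6 FPKM in the shCTCF samples. Lcn2, an iron-sequestering protein of the acute phase, was at 0.327, 0 and 0 FPKM against 25.2, 28.5 and 27.4 FPKM. Irf1, a transcription factor shared by the NF-kB and interferon responses, went from 6.02 ± 0.521 to 79.5 ± 8.13 FPKM (3.52, adjusted p 1.06e-07). Of the 3 targets that were lower, only Sod2, the mitochondrial superoxide dismutase, reached 1 FPKM in both groups (-0.46, adjusted p 0.000544). Nos2, the inducible nitric oxide synthase, went from 2.86 ± 0.0872 to 0.376 ± 0.116 FPKM. Ltb, a ligand of the slower route, went from 3.20 ± 0.415 to 0.670 ± 0.275 FPKM. Several of these genes also respond to signals other than NF-kB.

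**Figure D4:**
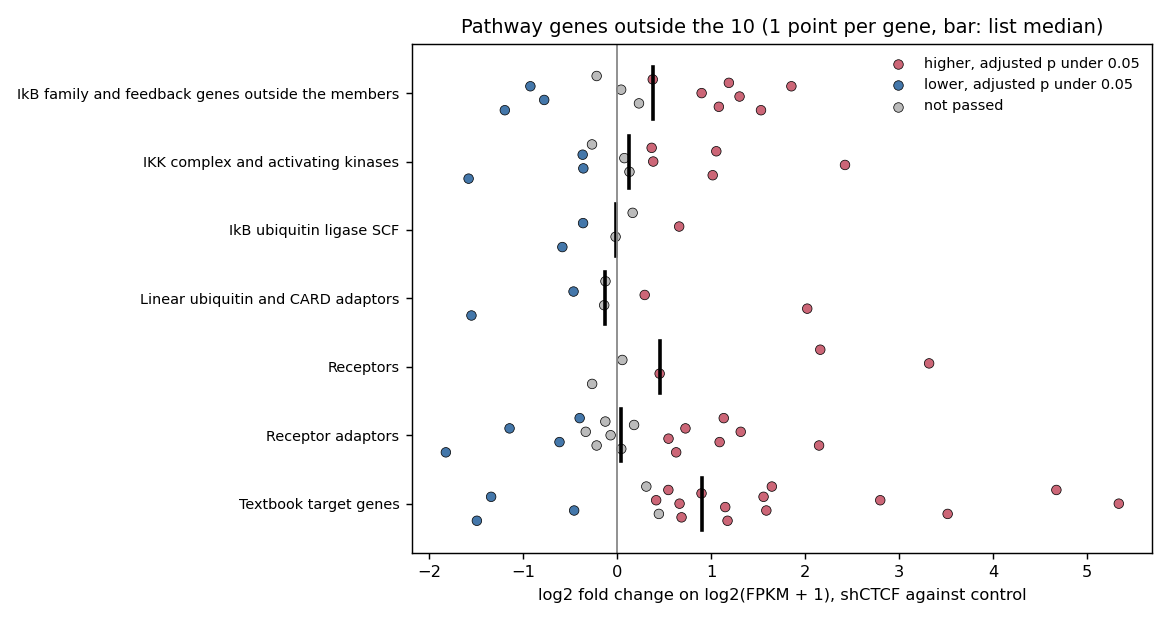
Log2 fold change on log2(FPKM + 1), shCTCF against control, of the 76 pathway genes tested, in 7 lists (1 point per gene, colour by direction of the call, grey where not past the threshold, bar at the list median). The textbook targets reach furthest to the right, with a median of 0.90, and each list except the receptors holds calls in both directions.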

How the data were processed

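RNA-seq libraries (KAPA stranded mRNA kit) of 3 control and 3 shCTCF samples were used. The authors trimmed the reads and mapped them to mm9 with HISAT2 (version 4.8.2 as given in the submitters' processing notes). The deposited FPKM values were calculated by the authors with Cufflinks (version 2.2.1) and RefSeq accessions and normalized for sequencing depth. Counts, also deposited by the authors, are whole fragments per accession from featureCounts (version 1.6.2, per the file header), unstranded and not normalized.

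Symbols from RefSeq (GRCm38.p6, names only) were found for 41685 of 41876 FPKM rows and 41186 of 41388 accessions with counts, and values were summed per symbol. Counts without a symbol made up at most 0.603% of a sample. A repeated header line was dropped. Genes that reached 1 FPKM in the mean were tested on log2(FPKM + 1) with limma 3.58.1 (eBayes with trend), which understates the change of low genes. Counts were tested with edgeR 4.0.16 (filterByExpr, TMM, quasi-likelihood), and a floor of 3 counts was 0.426 to 1.78 CPM (counts scaled to the library), covering counting error only. All p-values are two-sided, with Benjamini-Hochberg adjustment over all genes tested, with a threshold of 0.05. Both fits were run on simulated data with few changed genes, as many higher as lower. The real data have far more calls, unequal in direction on FPKM, so the simulation cannot show how the fits perform here. DESeq2 1.42.0 was an alternative. Ratios and shares had no test.

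The 10 genes, the pathway and marker lists and the tests were chosen with earlier results of these data known. Named pathway genes were the 3 largest rises and 3 largest falls of each list that were past the threshold, with no overlap between groups and at least 1 FPKM in the higher group. Genes are placed on mm9 by the count table, and promoter windows on GRCm38.p6.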

Additional observations from a re-analysis of the deposited data

How the results depend on the processing

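The number of the 10 genes past the threshold stayed within 1.5 times under all alternatives run, between 7 and 8 on FPKM and at 4 on counts with 1 replicate left out. With 1 replicate left out, 53 to 61 pathway genes were past it on FPKM and 39 to 42 on counts. Over all genes, between 6577 of 9947 and 7919 of 10014 tested were then past it on FPKM. On counts, between 4610 of 7482 and 5662 of 7668 were. The log2 fold change of Ctcf ran from -5.16 to -5.08. The 7 genes called on FPKM stayed past the threshold in the same direction under every alternative in which they were tested, except Relb. With the row of highest mean for each symbol Relb reversed to 0.41 (adjusted p 0.735), since its samples were listed under different accessions. The same setting moved the share differences of Nfkb1 to -6.79, Rela to 5.53 and Relb to 3.34 percentage points, reversed that of Nfkb2 to -0.0713, and moved the log2 ratio of Nfkbiz to 1.90. Other reversals concerned genes past the threshold under neither setting. Nfkbie on FPKM had -0.0219 without shCTCF replicate 1, in a range up to 0.1467 with 1 replicate left out. Rela on counts had -0.154 with library size only, and without 1 replicate it lay between -0.0626 and 0.0851, below 0 without control replicate 1, control replicate 3 or shCTCF replicate 2. Their cause was not tested.

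With 1 replicate left out, the share differences lay between -9.47 and -8.10 (Nfkb1), 4.90 and 6.36 (Nfkb2), -2.69 and -1.77 (Rel), 4.37 and 5.20 (Rela) and -0.40 and 0.75 (Relb) percentage points.

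The groups share replicate numbers, but deviations of same-numbered samples correlated at -0.04, 0.02 and 0.04 on FPKM and at -0.01, 0.03 and 0.01 on counts. No shared effect of the replicate number was thus seen, which does not show whether the samples were paired. With the replicate block 7 of the 10 genes were past the threshold on FPKM and 4 on counts, 57 pathway genes on FPKM and 39 on counts, and Rela on counts had -0.0108. Over all genes, 7137 of 9976 tested on FPKM and 4889 of 7341 on counts were past it with this block.

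Counts per kilobase over all 5 subunits could not be computed because Relb had 0 counts. Over Nfkb1, Rel and Rela, chosen after seeing the data, the differences between groups were -6.43, -2.65 and 9.08 percentage points on FPKM and -5.71, -2.80 and 8.51 on counts per kilobase. On this base the Rel shares of the groups overlapped on FPKM. The low counts of Nfkb2 and Tnfaip3 and the near absence of counts for Relb, Nfkbie and Nfkbiz go with their small share of unshared exon bases, and depth was lowest in control replicate 2.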

Other observations

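Relb, which was lower, and Bcl3, which was higher, lie on the same strand of mm9 chromosome 7, with 179023 bases and 10 annotated genes between them. These genes were chosen after the values of Relb and Bcl3 had been seen. Of the 10, 5 were expressed at the filter on FPKM, of which 3 were higher, 1 was lower and 1 did not pass the limma test. Over all genes tested, 28.8% were higher and 44.2% were lower. From Relb towards Bcl3, Clptm1, next to Relb, was at 39.6 ± 5.96 and 40.2 ± 0.75 FPKM in the controls and after knockdown (SD, n = 3 each), a log2 difference of 0.03 (adjusted p 0.804). Apoe, the apolipoprotein of lipid transport, had a log2 fold change of 0.72 (adjusted p 0.00514). Tomm40, a channel of the mitochondrial outer membrane, was lower, from 92.95 ± 14.8 to 49.9 ± 1.52 FPKM (-0.87, adjusted p 0.000171). The adhesion genes Nectin2 and Bcam, nearer to Bcl3, went from 2.06 ± 0.871 to 8.17 ± 0.866 FPKM (1.62, adjusted p 0.000185) and from 1.32 ± 0.343 to 5.22 ± 0.607 FPKM (1.43, adjusted p 5.68e-05). Calls in both directions stood within the interval, as they did among all genes tested, and no test of position was run.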
